A study of Mus musculus with 2 samples.

Results

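Retinoic acid is a small signalling molecule that embryonic cells make from vitamin A and that pushes pluripotent cells towards differentiation. The 9 genes described here code for proteins that take up its precursor, make it, carry it, break it down or respond to it: Stra6, Rdh10, Dhrs3, Aldh1a2, Crabp1, Crabp2, Cyp26a1, Cyp26b1 and Rarb. They were chosen by gene symbol, for their role and not by a measured threshold, though with earlier results of these data known. All 9 were found among the 18032 genes of the expression table. The gene-by-gene comparison is between cEpiSC, mouse epiblast stem cells derived in vitro by conversion to a primed state like that of the postimplantation embryo, and mESC, embryonic stem cells of the naive or ground state.

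Both libraries derive from cells given as wild type, and 1 library was sequenced for each state. The cEpiSC library came from mESC in 2iLIF culture that were plated on fibronectin, changed after 24 h to N2B27 medium containing activin A (20 ng/ml) and FGF2 (12 ng/ml), and kept in it for 2 days. The mESC library came from the line ES-E14TG2a in serum-free N2B27 with 1 µM of PD0325901, an inhibitor acting on ERK signalling, 3 µM of CHIR99021, an inhibitor of GSK3, and LIF at 100 units/ml. Medium and state therefore cannot be told apart. The B27 supplement in N2B27 is sold with and without vitamin A, and which one was used is not given in the sources used here. With 1 library a state there is no replicate check and no p-value, and intervals cover counting error only. The libraries are bulk RNA, in which more cells of a type and more RNA per cell cannot be told apart.

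Retinol reaches cells bound to a carrier in blood and can enter them through the receptor STRA6. Inside, retinol dehydrogenases such as RDH10 oxidise it to retinal, DHRS3 turns retinal back to retinol, and retinal dehydrogenases such as ALDH1A2 complete the synthesis of retinoic acid. The cellular binding proteins CRABP1 and CRABP2 hold retinoic acid in the cytoplasm. CRABP2 is known for delivering it to the nuclear receptors, and CRABP1 for keeping it in the cytoplasm. CYP26A1 and CYP26B1 are cytochrome P450 enzymes that oxidise and so inactivate it. RAR receptors bind DNA together with RXR partners at direct repeats of a short half-site, and the gene of one of them, Rarb, is itself a classical target.

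The depth of the libraries was alike. The listed naive and primed markers mostly followed the labels, with naive transcripts reduced in cEpiSC but not lost. The libraries held 19956736 (cEpiSC) and 19843731 (mESC) estimated counts. Of 10 naive markers 6 were at least 2-fold lower in cEpiSC and 4 within 2-fold, led by Tfcp2l1 at a log2 ratio of -3.51. The 10 still summed to 1269 TPM in cEpiSC, against 2993 TPM in mESC. Of these Nanog stood at 530.61 TPM in cEpiSC and 1036.26 TPM in mESC, and Dppa3 was slightly higher in cEpiSC (64.91 TPM, against 54.64 TPM in mESC). Of 9 primed markers 8 were at least 2-fold higher, and the other, Cer1, had 1 count in cEpiSC and 0 in mESC. Markers of other cell types differed in both directions, and some were higher in cEpiSC by 2-fold or more. Of all genes at 1 CPM or more in a library, 13.6% were called higher in cEpiSC and 9.25% lower. The summed level of 14 primitive endoderm markers was 152 TPM in cEpiSC and 346 TPM in mESC, of which Sparc alone made up 117.77 TPM in cEpiSC and 275.44 TPM in mESC, with Ttr at 0 counts in both. That of 10 neuroectoderm markers was 35.1 TPM in cEpiSC and 86.6 TPM in mESC, with Pax3 at 0 in both. The 10 mesendoderm markers summed to 10.1 TPM in cEpiSC and 34.7 TPM in mESC. Among them Gsc stood at 0.47 TPM in cEpiSC and 22.64 TPM in mESC, and T at 0.43 TPM in cEpiSC and 1.88 TPM in mESC. Mixl1 stood at 0.19 TPM in cEpiSC and 1.05 TPM in mESC, and Eomes at 6.6 TPM in cEpiSC and 6.75 TPM in mESC. The 8 trophoblast markers summed to 109 TPM in cEpiSC and 159 TPM in mESC, with Cdx2 at 0 counts in cEpiSC, and the 8 fibroblast markers to 8.46 TPM in cEpiSC and 6.69 TPM in mESC. Of the markers at 1 CPM or more in a library, 2 of 9 for primitive endoderm (Cubn, 11.2-fold, and Col4a1, 6.54-fold) were called higher in cEpiSC by that measure and 4 were called lower. Also called higher were 1 of 4 for neuroectoderm (2 lower), none of 6 for mesendoderm (4 lower), 3 of 6 for trophoblast (3 lower) and 1 of 4 for fibroblasts (Thy1, 4.23-fold; 1 lower). The part of such cells in the retinoid values was not tested.

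The promoters of Cyp26a1 and Rarb are shown because each holds the best known kind of retinoic acid response element, a DR5, which is a direct repeat of the receptor half-site with 5 bases between the copies. They are followed by the promoter of Crabp1, the most abundant of the 9 transcripts, which holds none in this window. Sequences are from RefSeq (GRCm38.p6), run 5′ to 3′ on the gene's own strand from 250 bases before to 50 after a listed start, and the capitals mark the DR5.
Cyp26a1 promoter (chr19:37697558-37697857, plus strand): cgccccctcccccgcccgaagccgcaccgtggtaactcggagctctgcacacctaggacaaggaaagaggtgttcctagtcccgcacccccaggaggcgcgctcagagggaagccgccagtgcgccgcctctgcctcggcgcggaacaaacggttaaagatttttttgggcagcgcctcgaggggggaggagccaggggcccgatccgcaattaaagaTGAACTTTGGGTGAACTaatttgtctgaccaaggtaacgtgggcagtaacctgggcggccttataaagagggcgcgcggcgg
Rarb promoter (chr14:16575427-16575726, minus strand): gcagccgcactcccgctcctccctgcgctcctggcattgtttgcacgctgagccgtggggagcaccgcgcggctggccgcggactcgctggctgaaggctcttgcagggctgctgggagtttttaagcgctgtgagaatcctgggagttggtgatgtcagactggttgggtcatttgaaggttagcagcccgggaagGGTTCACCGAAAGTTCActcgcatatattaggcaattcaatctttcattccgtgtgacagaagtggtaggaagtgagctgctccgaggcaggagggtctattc
Crabp1 promoter (chr9:54764498-54764797, plus strand): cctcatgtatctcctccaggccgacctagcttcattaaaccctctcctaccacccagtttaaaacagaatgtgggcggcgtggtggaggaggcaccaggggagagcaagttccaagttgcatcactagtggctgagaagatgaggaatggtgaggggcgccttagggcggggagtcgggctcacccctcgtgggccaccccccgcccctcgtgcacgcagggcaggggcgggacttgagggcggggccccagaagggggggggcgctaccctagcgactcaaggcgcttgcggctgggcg

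Read in the direction of the repeat, with the half-sites in capitals, both elements had 17 bases.
Cyp26a1 element: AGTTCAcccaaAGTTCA
Rarb element: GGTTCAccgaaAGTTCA
The Cyp26a1 element lies on the strand opposite to the gene, from -32 to -16 relative to the listed start. That of Rarb lies on the gene's strand, from -53 to -37. In the genome they span 37697776 to 37697792 (Cyp26a1) and 16575513 to 16575529 (Rarb). Both stretches fall inside the spans of their genes given below, since these listed starts are not the outer ends of the spans. The half-site searched for was AGGTCA, its variant AGTTCA, the variant GGGTCA, or lastly the variant GGTTCA, in pairs of the same direction on either strand with 5 bases between them. The search found a DR5 in 2 of 12 windows of the 7 members with a listed promoter, against 0.0974% of all 32851 windows (32 in number). No window of the 7 held such a pair with a spacing of 1 or 2 bases, which occurred in 0.222% and 0.268% of all windows. A single half-site was found in 43.7% of all windows, and in 3 of the 12, those of Cyp26a1 and Rarb, which hold a DR5, and 1 of 4 of Stra6. A match is a stretch of letters and not a measured binding site. These windows do not cover distant elements. The members were chosen for their role in the pathway, and windows of the same gene can overlap, so the shares above are descriptive only.

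Transcripts of the binding proteins, of the uptake receptor Stra6 and of the retinal reductase Dhrs3 were higher in cEpiSC, Rdh10 differed little, and Aldh1a2 was lower from a low level. Cyp26a1, Cyp26b1 and Rarb, which serve removal of retinoic acid and response to it, were under 1 CPM in both libraries, at 17 counts or fewer. A gene entered the comparison at 1 CPM (counts relative to library size, adjusted by TMM) or more in at least 1 library, and was called at a 2-fold difference by size alone. Of the 9 members 6 entered, of which 4 were called higher (Stra6, Crabp2, Dhrs3 and Crabp1), against 13.6% of all 13243 genes compared, and 1 lower (Aldh1a2), against 9.25%. Crabp2, Stra6 and Aldh1a2 were at 1 CPM or more in 1 library only, so that their entry leaned towards a difference, and the 3 that did not enter are described with their counts below. The median log2 ratio of cEpiSC over mESC was 1.66 over the 6 and -0.02 over all genes compared. It was 0.28 over genes compared with a mean of 1 to 10 CPM, the range of Crabp2, Dhrs3, Rdh10 and Stra6.

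**Figure D1:**
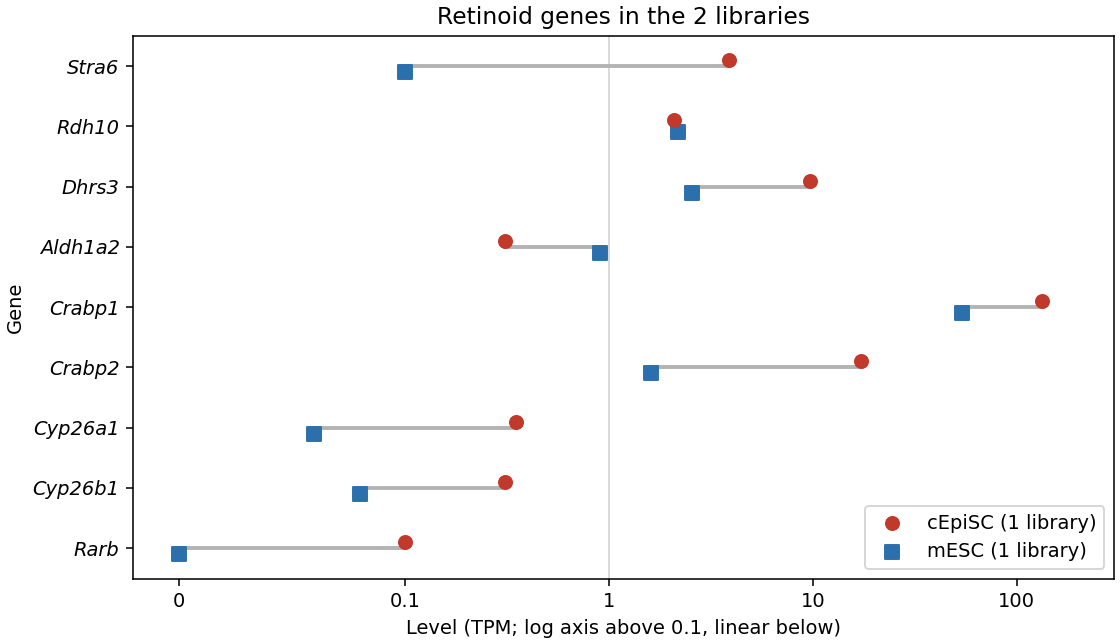
Level of each of the 9 genes in TPM (transcripts scaled per kilobase and to the same sum in each library, deposited values), for cEpiSC (red circles) and mESC (blue squares), 1 library each, on an axis that is logarithmic above 0.1 and linear below. Crabp1 stands far above the rest in both libraries, and 4 genes in cEpiSC and 5 in mESC lie below 1 TPM.

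Levels of different genes are compared here in TPM, which allows for transcript length. The summed level of the 9 genes was 167.42 TPM in cEpiSC and 61.28 TPM in mESC, of which Crabp1 made up 79.7% in cEpiSC and 87.8% in mESC. Without Crabp1 the sum was 33.91 TPM in cEpiSC and 7.50 TPM in mESC. In cEpiSC the order of levels was Crabp1, Crabp2, Dhrs3, Stra6 and Rdh10, with Cyp26a1, Cyp26b1, Aldh1a2 and Rarb below 1 TPM. In mESC it was Crabp1, Dhrs3, Rdh10, Crabp2 and Aldh1a2, followed by Stra6, Cyp26b1, Cyp26a1 and Rarb. Exact Poisson intervals of neighbours in these orders overlap for the 4 genes after Rdh10 in cEpiSC. They also overlap for Dhrs3, Rdh10, Crabp2 and Aldh1a2 in mESC, and for Stra6, Cyp26b1, Cyp26a1 and Rarb (0 counts) in mESC. The order of such neighbours is thus not resolved at this depth. In mESC the intervals of Dhrs3 (1.81 to 3.51 TPM) and Rdh10 (1.64 to 2.87 TPM) do lie above that of Aldh1a2 (0.557 to 1.38 TPM).

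Stra6, the membrane receptor through which retinol enters cells (Entrez 20897, chromosome 9, 58063793 to 58154004 in GRCm38.p6, plus strand), showed the largest ratio of the 6 members compared. It had 126 counts in cEpiSC and 3 in mESC, and a level of 3.87 TPM in cEpiSC and 0.10 TPM in mESC. The transcript was thus close to absent from mESC and at a low level in cEpiSC, at percentile 43 of the TPM values of all listed genes there. The fold without prior count was 39.7 (13.3 to 195), and the log2 ratio with a prior count of 2 was 4.61 (95% interval without it 3.73 to 7.61). The mESC count equals the floor of 3 counts per library. With deposited values plus 1 the log2 ratio was 2.15 in TPM and 1.63 in FPKM. The span of Stra6 overlaps that of Ccdc33, which had 14 counts in cEpiSC and 1 in mESC, but the genes share no exon in GENCODE vM21. The table of promoters lists 4 starts for Stra6, and the gene-level counts do not tell them apart.

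Of the enzymes at the retinol and retinal step, Dhrs3 was higher in cEpiSC and Rdh10 had no resolved direction. Dhrs3, whose product returns retinal to retinol and so limits synthesis (Entrez 20148, chromosome 4, 144892534 to 144928209, plus strand), had 163 counts in cEpiSC and 38 in mESC, or 9.63 TPM in cEpiSC and 2.56 TPM in mESC. It was 4.06-fold higher in cEpiSC, with a log2 ratio of 1.97 (1.50 to 2.57). Its span overlaps that of Vps13d, with no shared exon in GENCODE vM21. Vps13d had 614 counts in cEpiSC and 1104 in mESC, the opposite direction. Rdh10, whose product makes retinal from retinol (Entrez 98711, chromosome 1, 16105882 to 16132550, plus strand), had 54 counts in cEpiSC and 52 in mESC, or 2.08 TPM in cEpiSC and 2.19 TPM in mESC. Its log2 ratio of -0.03 has an interval of -0.60 to 0.55, so that a difference of less than about that size in either direction was not detectable at this depth. Within each library, Dhrs3 stood 4.63 times as high as Rdh10 in TPM in cEpiSC and 1.17 times in mESC. Taken from counts, the Dhrs3 to Rdh10 ratio, which needs no scaling between libraries, was 4.11 times as large in cEpiSC (2.38 to 7.18; conditional estimate with its exact interval, as for the other pairs below).

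Aldh1a2, the retinal dehydrogenase that makes most retinoic acid in the early mouse embryo (Entrez 19378, chromosome 9, 71215789 to 71296243, plus strand), was the only one of the 6 members compared that was called lower. It had 8 counts in cEpiSC and 21 in mESC, or 0.31 TPM in cEpiSC and 0.90 TPM in mESC. Both levels are low, and the log2 ratio of -1.27 has an interval of -2.86 to -0.24, which reaches well inside 2-fold. With a stricter filter, or on the TPM scale with a pseudocount of 1, it was not called.

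**Figure D2:**
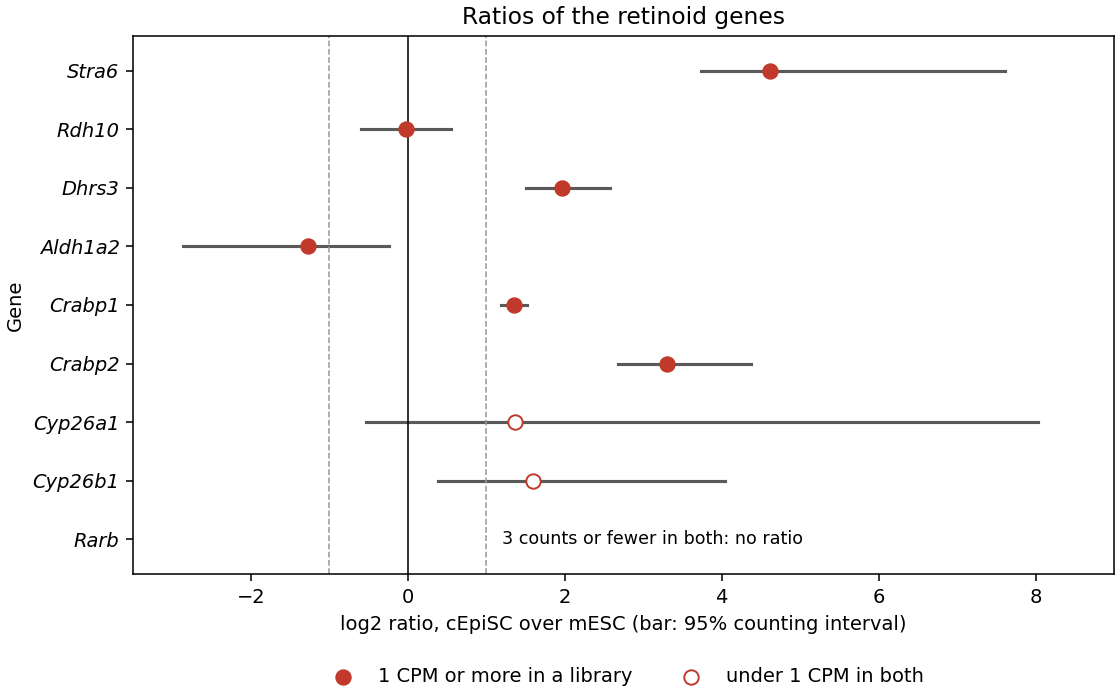
The log2 ratio of cEpiSC over mESC of each gene (point, prior count of 2) with its 95% counting interval (bar, no prior count); dashed lines mark 2-fold, and open points are genes under 1 CPM in both libraries. The intervals of Stra6, Crabp2, Dhrs3 and Crabp1 lie wholly above 2-fold, while no ratio is drawn for Rarb, at 3 counts in cEpiSC and 0 in mESC.

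Both cellular retinoic acid binding proteins were higher in cEpiSC, Crabp2 by more than Crabp1. Crabp1 (Entrez 12903, chromosome 9, 54764748 to 54773110, plus strand) had 1114 counts in cEpiSC and 411 in mESC, or 133.51 TPM in cEpiSC and 53.78 TPM in mESC. These levels stand at percentile 93.4 of all listed genes in cEpiSC and 82 in mESC. Crabp1 was 2.56-fold higher, with a log2 ratio of 1.35 (1.19 to 1.52). Crabp2 (Entrez 12904, chromosome 3, 87948693 to 87953372, plus strand) had 164 counts in cEpiSC and 14 in mESC, or 17.26 TPM in cEpiSC and 1.61 TPM in mESC. It was 11.1-fold higher (6.42 to 20.7), with a log2 ratio of 3.30 (2.68 to 4.37; 2.58 in FPKM plus 1), and stood at percentile 64.4 in cEpiSC, against 36.7 in mESC. Crabp1 exceeded Crabp2 in TPM by 7.74 times in cEpiSC and 33.4 times in mESC. The Crabp1 to Crabp2 ratio of counts in cEpiSC was 0.232 times that in mESC (0.122 to 0.406).

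The 2 P450 enzymes that clear retinoic acid were barely detected. Cyp26b1 (Entrez 232174, chromosome 6, 84571414 to 84593908, minus strand) had 17 counts in cEpiSC and 4 in mESC, or 0.31 TPM in cEpiSC and 0.08 TPM in mESC, a fold of 4.02 (1.31 to 16.4). Cyp26a1 (Entrez 13082, chromosome 19, 37697738 to 37701536, plus strand) had 6 counts in cEpiSC and 1 in mESC, or 0.35 TPM in cEpiSC and 0.06 TPM in mESC. Its ratio of 5.67 has an interval of 0.688 to 261, which includes equal levels. Cyp26b1 lay under 1 CPM in both libraries too, so neither was called. Set against Aldh1a2 within each library, the 2 P450 genes together had 23 counts to its 8 in cEpiSC and 5 to its 21 in mESC. By the conditional estimate that ratio of counts was 11.4 times as large in cEpiSC (2.97 to 53.1). It rests on counts of 5 and 8 at its smallest. It sets 2 genes that were not called over Aldh1a2, the only member called lower, which was at 1 CPM or more in mESC alone. The ratio thus restates the values above and is no separate result.

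Rarb, the receptor gene with the DR5 shown above (Entrez 218772, chromosome 14, 16430839 to 17082331, minus strand), had 3 counts in cEpiSC and 0 in mESC, or 0.10 TPM in cEpiSC and a listed 0 in mESC. Both values are at or under a floor of 3 counts per library, equal to 0.147 CPM in cEpiSC and 0.155 CPM in mESC, and no fold is given. Exons of Rarb overlap those of Top2b and of an antisense transcript on the opposite strand in GENCODE vM21, and whether counting used strand is not given. Both members whose promoter window holds a DR5 were thus at 6 counts or fewer in either library. Over the whole table, 12 genes had a DR5 in a listed promoter window. Of these 7, Cyp26a1 and Rarb among them, were under 1 CPM in both libraries, while 13243 of all 18032 genes were compared. The other 5 DR5 genes included 2 called higher (Gm35953 and Syndig1) and 1 lower (Prss27), against 13.6% and 9.25% of all genes compared. The remaining 2 were within 2-fold (Blvrb and LOC102633156), and the median log2 ratio of the 5 was 0.11. These 5 names were not set by rule and were added with their values in view.

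**Figure D3:**
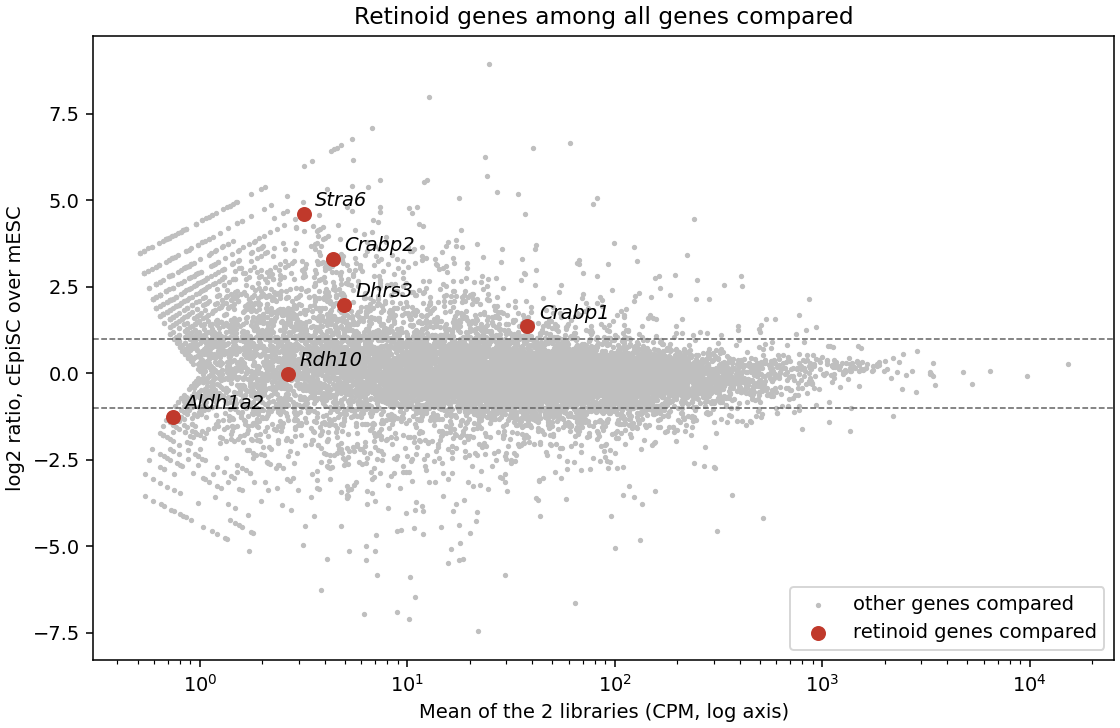
Mean CPM of the 2 libraries (log axis) against the log2 ratio of cEpiSC over mESC for 13243 genes at 1 CPM or more in a library; dashed lines mark 2-fold. Of the 6 retinoid genes (red) only Crabp1 lies above 10 CPM, and the other 5 lie in the low range, where ratios of all genes spread widely.

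The genes most like a member in both levels were sought for the highest and the lowest ratio, by distance in log2(TPM + 1) over the 2 libraries. For Stra6 these were Chrna9 (4.04 TPM in cEpiSC and 0.10 TPM in mESC), Gm3317 (4.03 TPM in cEpiSC and 0.06 TPM in mESC) and Loxl1 (4.02 TPM in cEpiSC and 0.17 TPM in mESC). For Aldh1a2 they were 6430571L13Rik (0.31 TPM in cEpiSC and 0.87 TPM in mESC), Cd3d (0.34 TPM in cEpiSC and 0.90 TPM in mESC) and St3gal1 (0.34 TPM in cEpiSC and 0.91 TPM in mESC). With 2 values a gene, this likeness describes levels only.

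Genes around the 9 in the pathway were examined as 6 lists, and brackets after a level give the log2 ratio of cEpiSC over mESC and its interval. The calls in each list stand beside 13.6% of all genes compared called higher and 9.25% called lower. Carriers and uptake or storage proteins of retinol were more often above than below 0: of 14 listed genes 8 were compared, 3 were called higher and none lower, with 6 above 0 and a median log2 ratio of 0.67. All genes compared with a mean of 1 to 10 CPM had a median of 0.28. The list's median was 0.03 without the filter on low abundance and 0.23 with it at 5 CPM, where 0 genes were called higher. Rbp4, which carries retinol in blood and is the ligand of STRA6, had 59 counts in cEpiSC and 11 in mESC (5.99 TPM in cEpiSC and 1.22 TPM in mESC; log2 ratio 2.16, 1.40 to 3.42). Rbp7, a cellular retinol binding protein gene, had 45 counts in cEpiSC and 14 in mESC (1.48, 0.71 to 2.58). Both are low, and neither was left above a filter at 5 CPM. Fabp5, a fatty acid binding protein gene whose product can also carry retinoic acid, stood at 58.25 TPM in cEpiSC and 31.27 TPM in mESC, just under 2-fold. Crabp2 stood at 0.296 times the TPM of Fabp5 in cEpiSC and 0.0515 times in mESC. Fabp5 was named after its value was seen.

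Other enzymes of retinoid conversion gave no common direction. Of 20 other dehydrogenases and related enzymes 19 were in the table and 8 were compared, of which 1 was called higher and 1 lower. The other 6 differed by less than 2-fold, and the median log2 ratio was 0.03. These calls are near the shares over all genes compared, 13.6% higher and 9.25% lower. Rdh11, a retinal reductase gene, was the higher at 98.82 TPM in cEpiSC and 48.88 TPM in mESC (log2 ratio 1.06, 0.94 to 1.19). Adh1, an alcohol dehydrogenase gene, was the lower at 0.75 TPM in cEpiSC and 5.38 TPM in mESC (-2.58, -3.86 to -1.87). The other Aldh1a genes on the list lay under 1 CPM in both libraries, and their values are given to stand beside Aldh1a2. Aldh1a1 had 0 counts in cEpiSC and 1 in mESC, and Aldh1a7 had 3 in cEpiSC and 1 in mESC. Aldh1a3 had 1 count in cEpiSC and 18 in mESC, close to the 21 of Aldh1a2 in mESC. Its fold of 0.0525 (0.00126 to 0.333) lies wholly beyond 2-fold lower, though the gene fell short of the minimum for a call. Of 3 further P450 genes 1 was compared, Cyp2s1, which was lower at 7.45 TPM in cEpiSC and 22.98 TPM in mESC (-1.57, -1.81 to -1.36). Cyp26c1, the third member of the Cyp26 family, had 0 counts in cEpiSC and 1 in mESC.

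Among the receptor genes, Rarg was higher in cEpiSC while Rarb was close to undetected. Of 12 listed receptors, which include the related orphan receptors, 11 were in the table and 7 were compared. Rarg alone was called, the other 6 differing by less than 2-fold, with a median log2 ratio of -0.03. A call of higher was given to 13.6% of all genes compared, so 1 of 7 is near that share. Rarg, which encodes the retinoic acid receptor gamma, had 5055 counts in cEpiSC and 1034 in mESC, or 161.86 TPM in cEpiSC and 35.84 TPM in mESC. It was 4.62-fold higher, with a log2 ratio of 2.21 (2.11 to 2.31). Rara, the gene of receptor alpha, stood at 38.43 TPM in cEpiSC and 44.71 TPM in mESC (-0.23, -0.34 to -0.12). In TPM, Rarg was 4.21 times as high as Rara in cEpiSC and 0.802 times in mESC, and the Rarg to Rara ratio of counts was 5.43 times as large in cEpiSC (4.91 to 6.01). The RXR partner genes Rxra (11.99 TPM in cEpiSC and 11.02 TPM in mESC) and Rxrb (36.07 TPM in cEpiSC and 38.27 TPM in mESC) differed little. The third RXR gene, Rxrg, had 13 counts in cEpiSC and 1 in mESC, a ratio of 12.3 (1.85 to 522), and was under 1 CPM in both. Rara and the RXR genes were named after their values were seen, as the other receptors of the pathway.

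All 13 coregulators of these receptors were compared, of which 2 were called lower and none higher, with 11 below 0 and a median log2 ratio of -0.59. Among all genes compared, 9.25% were called lower and 13.6% higher. The lower ones included the acetyltransferase gene Crebbp (4.46 TPM in cEpiSC and 10.43 TPM in mESC; -1.13, -1.29 to -0.98). These transcripts are long: their median length, inferred from counts and FPKM, was 7654 bases. Ratios of all genes ran lower with length, with a median of -0.32 in the decile of the longest genes compared and 0.17 in that of the shortest. The part of length in the coregulator values was not tested. The 6 compared members had a median length of 1798 bases.

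Genes known to respond to retinoic acid in embryonic or embryonal carcinoma cells differed in both directions. Of 29 listed targets 18 were compared, and 5 were called higher, 8 lower and 5 neither, with a median log2 ratio of -0.63. Over all genes compared 13.6% were called higher and 9.25% lower. The higher calls numbered 1 with the filter at 5 CPM and 0 with TPM or FPKM plus 1, and the lower ones 5, 6 and 4. The median was -0.31 without the filter and -1.04 at 5 CPM. The higher ones included Foxa1 (47 counts in cEpiSC and 5 in mESC) and Hoxa5 (28 counts in cEpiSC and 7 in mESC), both at few counts. The lower ones included Cdx1, a homeobox gene that Wnt signalling also activates (0.97 TPM in cEpiSC and 63.10 TPM in mESC; -5.83, -6.71 to -5.32). Tgm2, the gene of tissue transglutaminase, stood at 2.53 TPM in cEpiSC and 14.42 TPM in mESC (-2.44, -2.78 to -2.16). Hoxb4 had 7 counts in cEpiSC and 45 in mESC (-2.45, -4.16 to -1.61), and Zfp703 had 32 in cEpiSC and 157 in mESC (-2.30, -2.97 to -1.82). Stra8, a gene named for its stimulation by retinoic acid, was lower at 20.08 TPM in cEpiSC and 42.65 TPM in mESC (-1.04, -1.24 to -0.85). Hoxb1, an early hindbrain target, had 1 count in cEpiSC and 0 in mESC. Hoxa5, Stra8 and Hoxb1 were named after their values were seen.

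**Figure D4:**
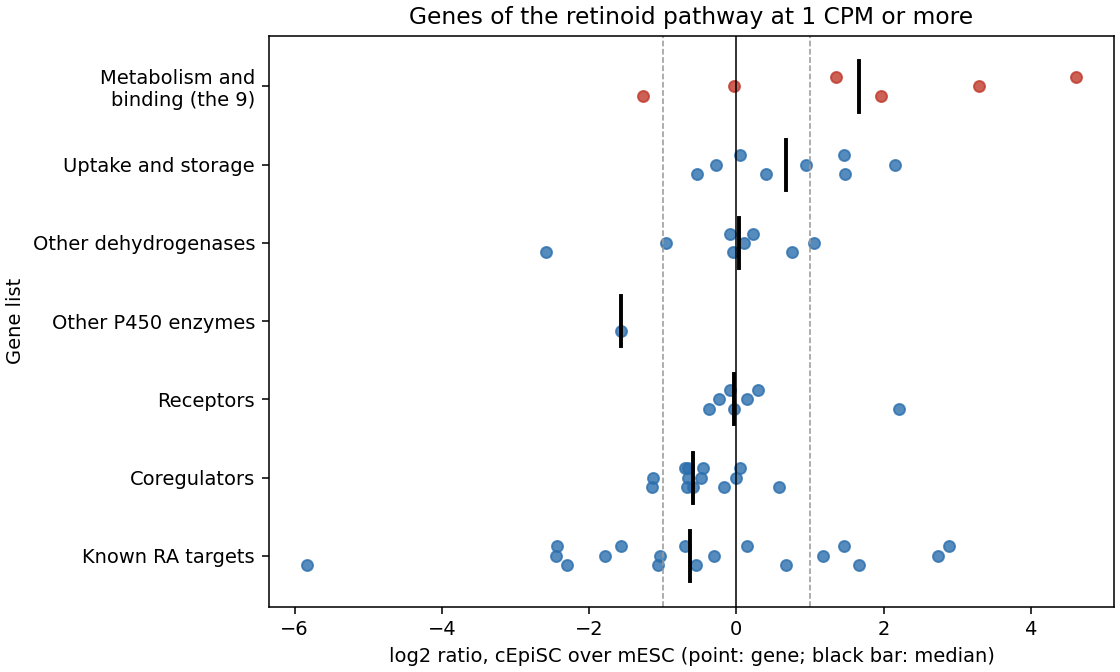
The log2 ratio of cEpiSC over mESC of each gene at 1 CPM or more in a library (points), by list, with the list's median (black bar); red points are 6 of the 9 genes and dashed lines mark 2-fold. Medians run from 1.66 for the 6 and 0.67 for uptake and storage to -0.59 for coregulators and -0.63 for known targets, and -1.57 for the single other P450 gene compared.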

How the data were processed

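Polyadenylated RNA from 2 mouse samples was sequenced, 1 cEpiSC and 1 mESC. Per the labels' protocols, mRNA was captured on oligo(dT) beads, fragmented and reverse transcribed with random hexamers, and dUTP marked the second strand. Per the submitters' processing notes, HISAT2, Bowtie2, RSEM 1.3.1 and DESeq2 1.34.0 were used with GRCm38.p6; the step each served is not stated, nor whether counting used strand. Per the file headers, the authors deposited read counts, which are estimated counts (11.9% of genes in cEpiSC and 11.3% in mESC lie more than 0.005 from a whole number; none of the 9 genes does), TPM and FPKM. TPM was scaled by the authors to 1000000 per library and deposited FPKM to fragment totals. No column of another sample was present (0).

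After rounding, edgeR 4.0.16 (R 4.3.3) gave TMM factors of 1.03 for cEpiSC and 0.975 for mESC. Log2 ratios used a prior count of 2. Calls needed 2-fold by size. Intervals are exact conditional 95% intervals without the prior count. Reads copied by PCR carry no molecular identifiers, so neither intervals nor floors cover more than counting error. Coordinates, 1-based, are RefSeq's for GRCm38.p6, matched by Entrez identifier (9 of 9), and strands and exons GENCODE vM21's. Promoters matched 7 of 9 genes. The script for ratios was checked on simulated counts. Other settings used DESeq2 1.42.0, and interval computation used Python 3.11.15 with scipy 1.17.1.

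The members and lists were chosen with earlier results of these data known. All 9 members were named, and from each list up to 6 compared genes with the largest ratio among those past 2-fold, or the 2 most abundant where none was. Of the listed genes, Sdr16c5 and Rorb were not analysed here. Some genes that this rule names, though counted in their lists, are not reported here.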

Additional observations from a re-analysis of the deposited data

How the results depend on the processing

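The analysis was repeated under 8 settings. In 6 of them 1 choice changed: DESeq2's size factors or plain totals for scaling, a filter at 5 CPM or none, and a prior count of 0.5 or of 5. The other 2 used TPM or FPKM plus 1, which replaces the unit, the scaling and the prior count together. Stra6, Crabp2, Dhrs3 and Crabp1 were called higher under all 8. Without the filter 7 members were called higher, Cyp26a1, Cyp26b1 and Rarb having been added. Aldh1a2 was the member called lower under 5 of the 8 settings, and the count of lower members was 0 with the filter at 5 CPM, which removed the gene, and with TPM or FPKM. The log2 ratio of Stra6 ranged from 1.63 to 5.10, that of Crabp2 from 2.58 to 3.42 and that of Dhrs3 from 1.48 to 2.04, while that of Crabp1 was 1.43 at its highest, with the lowest values of Stra6, Crabp2 and Dhrs3 on the FPKM scale; which of the choices moved them was not tested. Over all genes 1796 were higher and 1225 lower. The counts of higher and of lower genes were 2712 and 1665 without the filter, 970 and 924 at 5 CPM, 1092 and 950 with TPM, and 945 and 680 with FPKM. The median log2 ratio of all genes compared lay between -0.05 and 0.05 under every setting. Depth limits the genes at few counts most: intervals of Cyp26a1 and Rarb include equal levels. No paired analysis was possible because each state has 1 library, and for the same reason no replicate could be left out.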
